A study of Mus musculus with 32 samples.

Results

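Social defeat, in which an aggressive mouse attacks and subdues the tested mouse, was compared with a control condition in adult mice at day 21 by sequencing polyadenylated RNA of the basolateral amygdala. The comparison took the 4 libraries titled adult, social defeat, day 21 and the 4 titled adult, control, day 21, which are 8 of the 32 libraries of the study. The other 24 libraries were adult mice at day 1 and adolescent mice at day 1 and day 21, with 4 control and 4 defeat libraries at each. The mice were 6 or 9 weeks old per the design text, which does not say which age belongs to which class or which event the days follow. Strain, genotype and housing are not stated in the sources used here. No label says whether the 4 libraries of a group are 4 mice, so the p-values cover the spread among libraries, which may be technical. In the main fit that spread was estimated within groups over all 32 libraries, and not over the 8 compared libraries alone.

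The basolateral amygdala is a nucleus of mainly glutamatergic neurons that assigns emotional value to sensory input and stores fear memories. Immediate early genes such as Fos and Egr1 are transcribed within minutes of neuronal firing without new protein synthesis, so their RNA is used as a readout of recent activity. Cytosolic chaperones of the Hsp70 and Hsp40 families refold proteins, and their genes are induced by heat shock factor during heat and other proteotoxic stress.

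Library totals were 66479735 to 69516997 counts in the controls and 53885799 to 67751519 counts in the defeat group, and 26553 to 27224 and 26820 to 27455 genes had at least 1 count. The excitatory markers Slc17a7 (144.8 to 184.2 FPKM, fragments per kilobase of gene, scaled to depth) and Camk2a (281.2 to 338.8 FPKM) were present in all libraries of both groups. So was the basolateral amygdala marker Rspo2 (2.25 to 3.87 FPKM). Drd2 (24.5 to 39.8 FPKM) and Drd1 (12.6 to 20.9 FPKM), dopamine receptor genes of striatum and central amygdala, were present in them too. Ttr, the transthyretin gene that choroid plexus expresses at very high levels, stood at 85.3 and 414.8 CPM (counts per library total, with TMM scaling) in control replicates 1 and 3, against 2.17 and 2.12 CPM in control replicates 2 and 4 and 2.32 to 10.9 CPM in the defeat libraries. Defeat replicate 1 stood apart from the other 3 defeat libraries in blood vessel markers, as given with those markers. In bulk tissue, fewer cells of a type and less RNA per cell cannot be told apart.

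To place the results in sequence, the promoters of the chaperone and immediate early genes with the smallest p-values are shown first, as the 250 bases before the annotated start in RefSeq on build GRCm38.p6, written 5′ to 3′ on the gene's strand. In the chaperone genes capitals mark a heat shock element, searched as GAANNTTC or TTCNNGAA, and in the immediate early genes they mark the short cAMP response element TGACG or its reverse complement CGTCA. The entries are Dnajb1 at chr8:83607925-83608174 (plus strand), Hspa1a at chr17:34972157-34972406, Hspa1b at chr17:34959239-34959488, Egr4 at chr6:85513590-85513839 and Fosb at chr7:19310046-19310295 (all minus strand).
Dnajb1: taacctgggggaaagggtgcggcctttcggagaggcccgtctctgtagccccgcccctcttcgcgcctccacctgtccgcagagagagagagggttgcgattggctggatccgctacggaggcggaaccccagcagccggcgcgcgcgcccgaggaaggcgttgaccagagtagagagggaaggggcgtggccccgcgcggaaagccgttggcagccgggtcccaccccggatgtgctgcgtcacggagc
Hspa1a: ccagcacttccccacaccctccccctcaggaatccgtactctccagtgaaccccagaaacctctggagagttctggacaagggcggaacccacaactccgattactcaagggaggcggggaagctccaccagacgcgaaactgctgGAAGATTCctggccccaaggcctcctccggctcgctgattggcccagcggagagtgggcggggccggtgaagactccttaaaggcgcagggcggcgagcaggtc
Hspa1b: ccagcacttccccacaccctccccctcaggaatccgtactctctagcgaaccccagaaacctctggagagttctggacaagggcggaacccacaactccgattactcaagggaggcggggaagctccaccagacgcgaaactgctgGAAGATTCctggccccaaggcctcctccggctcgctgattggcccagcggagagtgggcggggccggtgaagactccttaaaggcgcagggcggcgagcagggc
Egr4: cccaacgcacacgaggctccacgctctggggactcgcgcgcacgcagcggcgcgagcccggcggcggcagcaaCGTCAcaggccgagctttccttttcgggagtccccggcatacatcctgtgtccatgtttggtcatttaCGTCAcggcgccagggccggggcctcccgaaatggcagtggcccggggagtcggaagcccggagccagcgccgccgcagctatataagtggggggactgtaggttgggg
Fosb: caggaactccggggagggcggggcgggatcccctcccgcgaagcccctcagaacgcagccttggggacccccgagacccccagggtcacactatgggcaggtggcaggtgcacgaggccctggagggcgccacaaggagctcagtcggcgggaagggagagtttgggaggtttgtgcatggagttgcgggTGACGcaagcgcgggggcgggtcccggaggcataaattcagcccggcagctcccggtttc
Hspa1a and Hspa1b carried 1 heat shock element each, 104 bases before the start, and these letters were in 12.8% of the 32851 promoters of this length in the table. The Dnajb1 windows, from both annotated starts, held none. The Hspa1a and Hspa1b windows were identical at 247 of 250 bases. Egr4 carried the short cAMP response element 177 and 109 bases before the start and Fosb 60 bases before it, and Dnajb1, where it is not capitalised, 11 bases before it. That short element was in 17.8% of promoters. The full element TGACGTCA (1.55% of promoters), the CArG box (1.47%) and TATAAA (12.4%) were in none of these windows. A match is a description of letters and not evidence of binding.

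Across the transcriptome, 2 of 23778 tested genes differed after defeat at a Benjamini-Hochberg adjusted p under 0.05 in edgeR's quasi-likelihood test, which is 0.00841% of genes, and both were lower. DESeq2 called 40 genes, 14 higher and 26 lower, and without defeat replicate 1 edgeR called 29. An edgeR fit of only the 8 compared libraries called 3 genes, Egr2, Fos and Gm28557, all lower and none shared with the 32-library fit. The 2 genes of the 32-library fit were Dnajb1, an Hsp40 co-chaperone gene, and the predicted gene Gm8113. At an unadjusted p under 0.05 there were 754 higher genes (3.17%) and 783 lower genes (3.29%). With upper quartile scaling, the same counts were 909 higher and 617 lower. All 4 defeat libraries lay above all 4 controls in 472 genes (1.99%) and below them in 451 genes (1.9%). Counts within gene groups are read below against these shares.

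Dnajb1, on chromosome 8 at 84334822 to 84339282 as the deposited table lists it, encodes the J-domain protein that hands unfolded clients to Hsp70. Its control libraries held 91.4, 83.8, 75.6 and 82.2 CPM and its defeat libraries 62.2, 54.5, 56.4 and 46.8 CPM. The groups did not overlap, and the highest defeat library was replicate 1. The means were 83.3 ± 6.48 CPM in controls and 54.96 ± 6.37 CPM after defeat (SD, n = 4 each), and Dnajb1 fell by 0.60 ± 0.10 on the log2 scale (SE, edgeR adjusted p = 0.0272). The call passed in 7 of 16 alternative analyses, with adjusted p between 8.44e-05 and 0.175 and a log2 change of -0.66 to -0.53. Leaving out control replicate 1 or 2, or defeat replicate 2, 3 or 4, ended the call, with adjusted p of 0.0798, 0.122, 0.111, 0.106 and 0.17.

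Hspa1a and Hspa1b, the stress-inducible Hsp70 genes and the partners of Dnajb1, had values in the same direction but did not pass. Hspa1a had 33.1, 25.7, 24.3 and 21.7 CPM in controls and 17.4, 18.7, 13.3 and 15.7 CPM in defeat libraries. Every defeat library was below every control, with a log2 difference of -0.69 ± 0.14 (adjusted p = 0.137 by edgeR). Hspa1b had 40.5, 26.4, 26.5 and 22.7 CPM in controls and 19.5, 22.2, 13.5 and 16.7 CPM in defeat libraries, again without overlap, and a log2 difference of -0.69 ± 0.16 (adjusted p = 0.149 by edgeR). The pair is near-identical in sequence, as the promoters above show for their flanks, so how reads were shared between them is uncertain. DESeq2 called both.

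Of 29 chaperone genes tested, 27 had a log2 difference below 0 (49.9% of all genes did), with a median of -0.08 against 0.00 for all genes. An unadjusted p under 0.05 was reached by 10 lower and 0 higher members, and 6 members had no overlap between groups in the lower direction. Besides the 3 above, these 10 were Hspb1 (small heat shock protein, -0.66 ± 0.21), Chordc1 (Hsp90 co-chaperone, -0.19 ± 0.06), Dnajb5, Fkbp4, Dnaja1, Dnajb4 and St13. Hspb1 measured 9.48, 9.46, 13.1 and 11.2 CPM in controls and 12.03, 4.17, 6.58 and 4.52 CPM in defeat libraries, so defeat replicate 1 lay among the controls and the other 3 lay below them all. Chordc1 was at 98.1, 98.8, 98.3 and 98.1 CPM in controls and at 83.8, 84.6, 93.9 and 81.5 CPM in defeat libraries, with no overlap. Of the 29, the 4 with a difference at -0.60 or lower were Dnajb1, Hspa1a, Hspa1b and Hspb1, while the constitutive chaperone genes Hspa8 (-0.06 ± 0.06) and Hsp90ab1 (-0.06 ± 0.05) had small values. The number of lower members was 6 without control replicate 2.

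**Figure D1:**
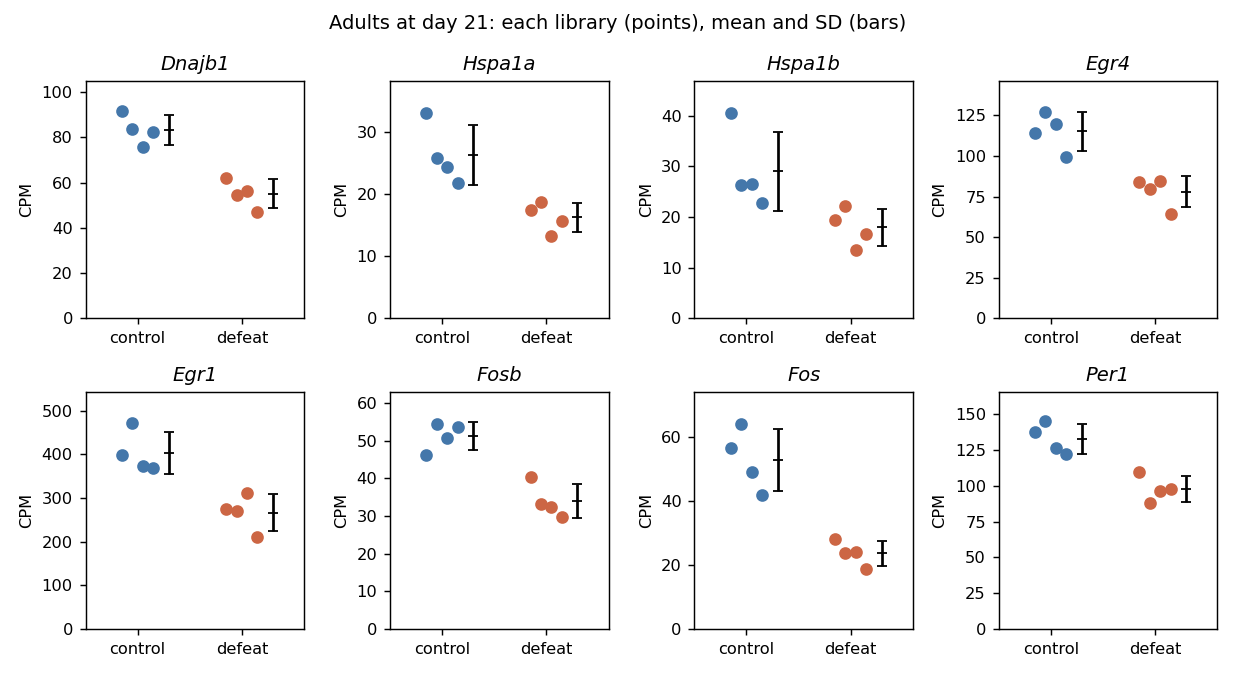
CPM (y axis, from 0) of 8 genes in each adult library at day 21, with controls in blue and defeat in orange; points are libraries in replicate order and the bars beside them are mean and SD. In each of the 8 genes all 4 defeat libraries lie below all 4 controls, and of these genes only Dnajb1 passed the adjusted threshold.

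Transcription factors of the immediate early class had lower values after defeat throughout the list. All 21 tested members had a log2 difference below 0, with a median of -0.60. An unadjusted p under 0.05 was reached by 17 lower and 0 higher members, and in 14 members every defeat library lay below every control. In the edgeR fit of all 32 libraries no member passed the threshold adjusted over all genes. An edgeR fit of only the 8 compared libraries called Egr2 and Fos, and DESeq2 called Egr1, Egr4, Fosb and Fosl2. The mean log2 CPM of the 21 genes was 5.28, 5.46, 5.27 and 5.17 in controls and 4.86, 4.70, 4.76 and 4.53 in defeat libraries, so the groups did not overlap. Across 16 alternative analyses 16 to 19 members were lower, 17 of them without the control libraries high in Ttr and 18 without defeat replicate 1.

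Egr4, Fosb and Egr1 had the smallest p-values of the group. Egr4, of the Egr family of zinc-finger factors, was at 114.2, 127.4, 119.6 and 99.3 CPM in controls and at 84.1, 79.7, 84.4 and 64.1 CPM in defeat libraries. Its groups did not overlap, and the log2 difference was -0.56 ± 0.12 (adjusted p = 0.141 by edgeR). Egr1, which is used as an activity marker in amygdala, was at 399, 472, 374 and 368 CPM in controls and 275, 270, 312 and 210 CPM in defeat libraries (log2 difference -0.60 ± 0.14, adjusted p = 0.149 by edgeR). Egr2 had a larger difference, -1.04 ± 0.31, and Egr3 a small one, -0.17 ± 0.06.

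Among the AP-1 genes, which encode the dimerising Fos and Jun proteins, Fosb was at 46.2, 54.4, 50.8 and 53.7 CPM in controls and 40.3, 33.1, 32.4 and 29.8 CPM in defeat libraries (log2 difference -0.60 ± 0.13, adjusted p = 0.142 by edgeR). Fos was at 56.5, 64.0, 49.0 and 41.7 CPM in controls and 28.2, 23.7, 24.2 and 18.7 CPM in defeat libraries, which was the largest difference of the 21 genes (-1.16 ± 0.31, adjusted p = 0.296 by edgeR). In both genes all defeat libraries were lower than all controls. Fosl2 (-0.44 ± 0.10), Junb (-0.65 ± 0.17) and Jun (-0.33 ± 0.11) had values in the same direction. The stress-responsive AP-1 relative Atf3 differed by -1.13 ± 0.32, and Jdp2, which encodes a repressor that dimerises with Jun, differed by -0.29 ± 0.06 (adjusted p = 0.141 by edgeR).

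Npas4, a neuron-specific factor induced by calcium entry, was at 51.7, 55.2, 48.1 and 45.9 CPM in controls and 30.03, 30.42, 38.4 and 31.7 CPM in defeat libraries, without overlap (log2 difference -0.62 ± 0.18, adjusted p = 0.434 by edgeR). The nuclear receptor genes Nr4a3 (-0.55 ± 0.15), Nr4a2 (-0.54 ± 0.18) and Nr4a1 (-0.52 ± 0.19) differed by similar amounts. Ier2, Btg2 and Klf4 made up the rest of the 17, and Maff, Klf10, Ier5 and Csrnp1 did not reach an unadjusted p under 0.05.

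Other activity-induced genes, whose products act at synapses and in signalling, were more mixed. Of 20 activity-induced effectors, 14 were below 0, 7 were lower and 1 was higher at an unadjusted p under 0.05, with a median of -0.13. Arc, which drives removal of AMPA receptors from synapses, was at 300.4, 361, 246 and 248 CPM in controls and 186, 181, 209 and 149.9 CPM in defeat libraries, without overlap and with a log2 difference of -0.67 ± 0.28. Ccn1, a secreted matrix protein gene, differed by -0.89 ± 0.20 (adjusted p = 0.149 by edgeR). The others of the 7 were Tiparp, Trib1, Plk3, Sik1 and Gadd45g.

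Inhba, the activin beta A subunit gene, was the 1 effector in the other direction. It was at 9.01, 10.3, 13.5 and 21.07 CPM in controls and 21.08, 21, 27.9 and 28.8 CPM in defeat libraries, so control replicate 4 reached the lowest defeat libraries (log2 difference 0.87 ± 0.24). Bdnf, the neurotrophin gene, differed by -0.04 ± 0.14, with 18.02 to 29.01 CPM in controls and 20.6 to 29.1 CPM in defeat libraries. Among 12 MAP kinase phosphatase and Sprouty genes, which switch off the signal that induces immediate early genes, 12 were below 0 with a median of -0.07. Only Dusp1 and Dusp6 had an unadjusted p under 0.05 in that list. Dusp1 was at 39.9, 47.8, 32.5 and 28.2 CPM in controls and 22.3, 24.3, 25.02 and 20.1 CPM in defeat libraries, without overlap.

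**Figure D2:**
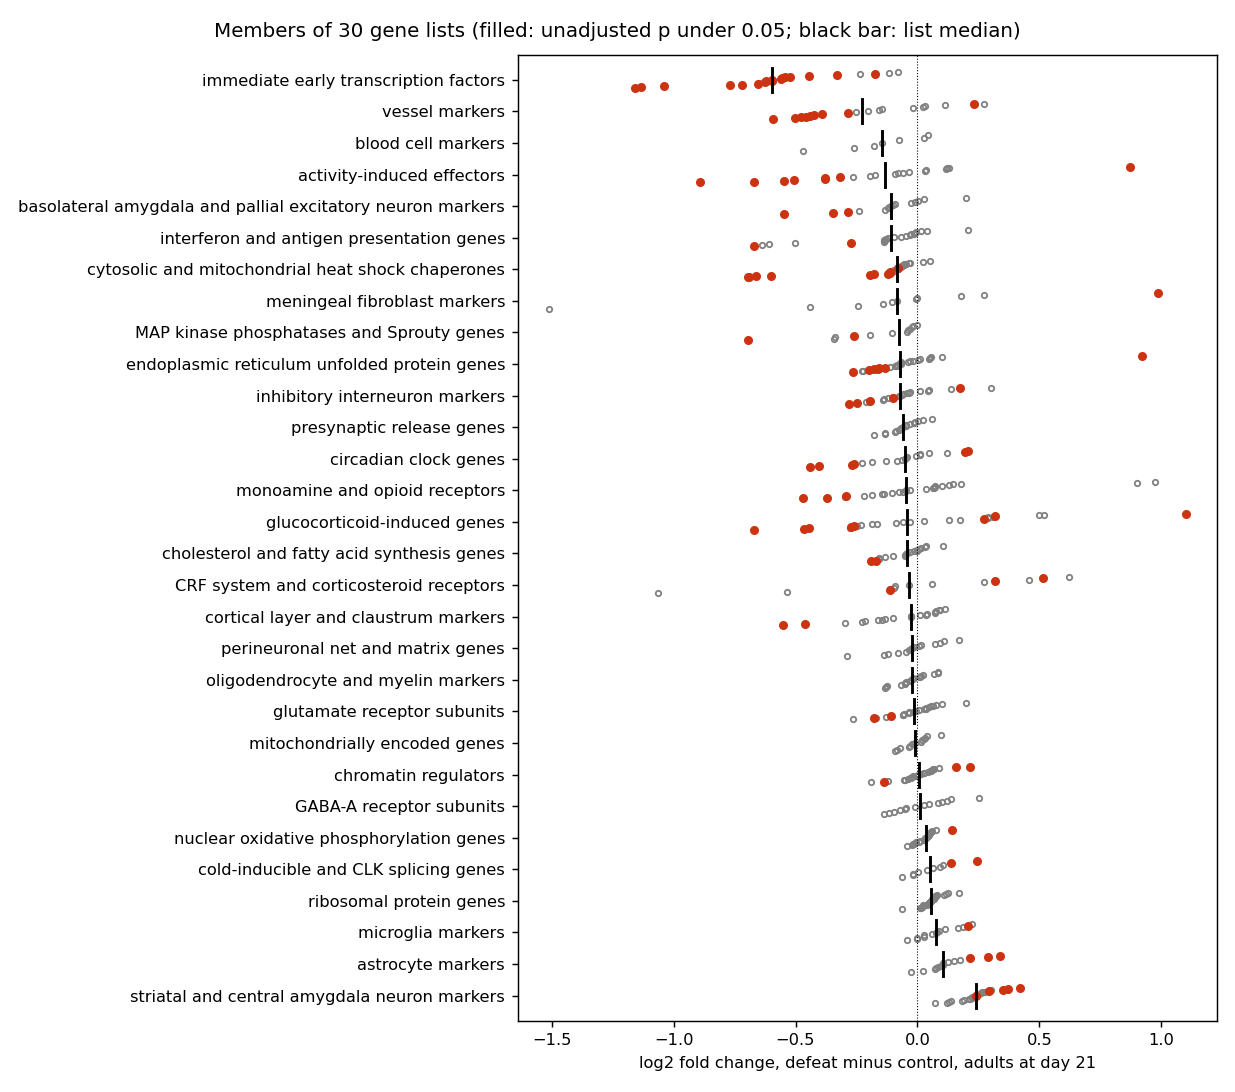
Log2 fold change, defeat minus control, in adults at day 21 (x axis) of the tested members of 30 gene lists (y axis, ordered by median); filled points have an unadjusted p under 0.05 and black bars are list medians. Choroid plexus markers, with a median of -1.19, are not drawn. Immediate early transcription factors have the lowest median among the lists drawn, -0.60, and striatal and central amygdala markers the highest, 0.24, which is 0.13 without defeat replicate 3.

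The same genes were then followed over both adult time points, to test whether the difference at day 21 differed from that at day 1. The day-by-defeat interaction passed an adjusted p of 0.05 in 148 genes (0.622%), of which 118 were lower and 30 higher, meaning a lower or higher defeat-minus-control difference at day 21. In 144 of the 148 the differences at the 2 days had opposite signs. In 115 the difference was below 0 at day 21 and above 0 at day 1. Choosing genes by the gap between the 2 differences favours opposite signs. The share of opposite signs over all genes is not given here, so these counts only describe the 148. Among immediate early transcription factors 13 of 21 passed, all lower, and 20 had an unadjusted p under 0.05 in that direction, against 5.93% of all genes. With upper quartile scaling, all genes split into 1138 lower and 1393 higher at an unadjusted p under 0.05, against 1410 (5.93%) and 1099 (4.62%).

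Egr4 had the smallest interaction p, -1.47 ± 0.17 in log2 units (adjusted p = 3.6e-05 by edgeR). It averaged 55.5 ± 3.27 CPM in day 1 controls, 104.1 ± 11.2 CPM at day 1 after defeat, 115.1 ± 11.9 CPM in day 21 controls and 78.1 ± 9.56 CPM at day 21 after defeat. Per1, a clock repressor gene that activity and glucocorticoids also induce, followed (-1.16 ± 0.15, adjusted p = 0.000142 by edgeR). Its means in the same order were 79.5 ± 1.84, 131.3 ± 17.2, 132.8 ± 10.5 and 97.9 ± 9.05 CPM. In both genes the day 21 defeat libraries lay between the day 1 and day 21 control levels.

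Dnajb1 had an interaction of -0.92 ± 0.14 (adjusted p = 0.00201 by edgeR), with means of 59.8 ± 10.4, 74.5 ± 6.99, 83.3 ± 6.48 and 54.96 ± 6.37 CPM in that order. The interaction includes the day 21 difference itself. For genes picked by that difference, such as Dnajb1, it is therefore not separate support. Egr1 (-1.23 ± 0.19), Fosb (-1.14, adjusted p = 0.00284 by edgeR), Fosl2 (-1.09), Nr4a3 (-1.31), Ccdc117 (-1.08) and Mcl1 (-0.48), an anti-apoptotic Bcl2 family gene, passed in the lower direction. Zc3h6, a zinc-finger gene, passed in the higher direction (0.89 ± 0.13, adjusted p = 0.000918 by edgeR), with 16.6 ± 1.72 and 11.7 ± 0.856 CPM in day 1 controls and defeat libraries and 12.2 ± 0.447 and 16.0 ± 1.73 CPM at day 21.

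The immediate early score, the mean log2 CPM of the 21 genes, ran from 4.39 to 4.57 in day 1 controls, 5.01 to 5.18 at day 1 after defeat, 5.17 to 5.46 in day 21 controls and 4.53 to 4.86 at day 21 after defeat. The control scores of the 2 days did not overlap, and the interaction holds both control levels. Without defeat replicate 1 of day 21 the interaction passed in 269 genes, without defeat replicate 2 in 85, and without control replicate 2 of day 21 in 94. Adolescents at day 21 had a median of -0.11 for the same 21 genes.

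**Figure D3:**
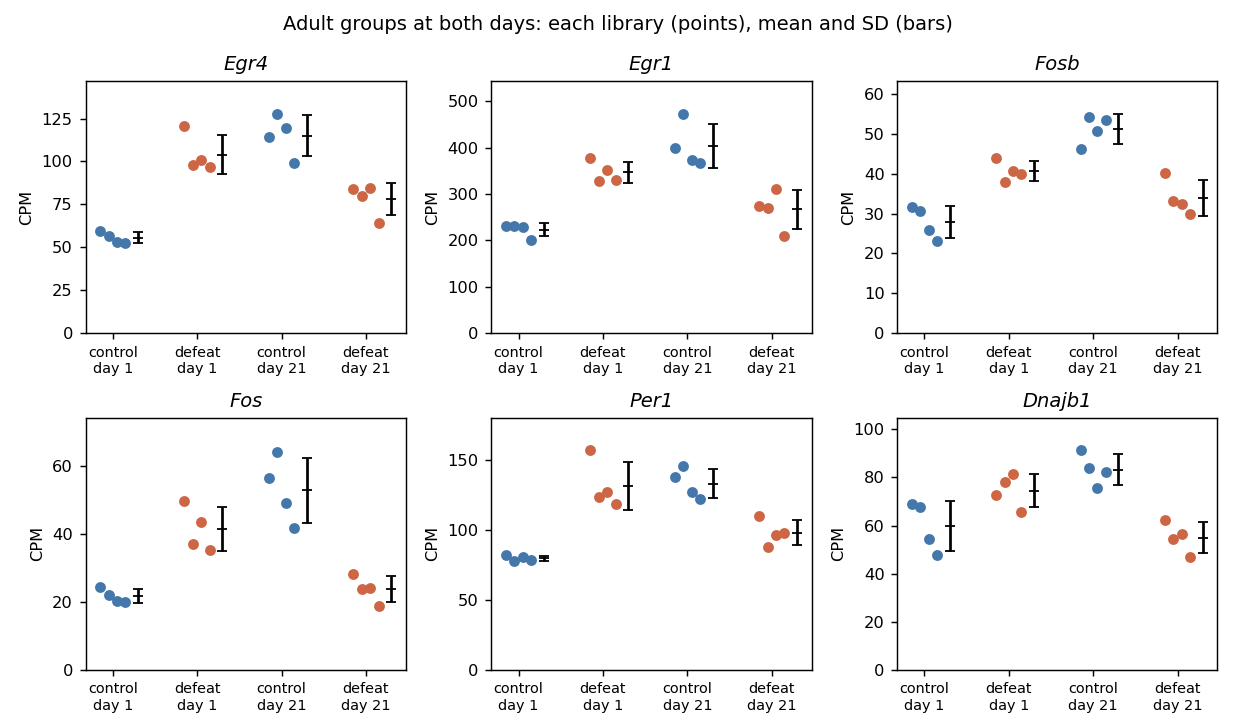
CPM (y axis, from 0) of 6 genes in the 4 adult groups; points are libraries in replicate order, blue for control and orange for defeat, and bars are mean and SD. In every panel the defeat mean is above the control mean at day 1 and below it at day 21, and for Egr4 the means are 55.5, 104.1, 115.1 and 78.1 CPM from left to right.

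Gm8113, a predicted protein-coding gene on chromosome 14 at 44162847 to 44170868 as the table lists it, was the second gene that fell. Its control libraries held 0.558, 0.122, 0.291 and 0.118 CPM, 73 counts in all, and its 4 defeat libraries held 0 counts. Setting the group's floor at 3 counts, which covers counting error only, the gene was at least 22.5-fold lower (adjusted p = 0.00162 by edgeR). All 28 other libraries of the study had counts, from 5 to 52 per library. How reads were assigned to genes is not stated in the sources used here, so whether the 0 in this group reflects expression or counting was not tested. In the edgeR fit of only the 8 compared libraries the gene was removed by the expression filter and had no value. No other tested gene was at 0 in all libraries of 1 group and counted in every library outside it. In 51 tested genes the adult defeat day 21 libraries were all at 0 while every other group had counts, against 17 to 43 tested genes in the other 7 groups. Genes removed by the expression filter were not searched for these patterns. Of 15 neighbours within 500000 bases 12 have model names, and of the 4 tested 0 had an unadjusted p under 0.05.

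Tmc5, a transmembrane channel-like gene, showed the reverse layout, with 0 counts in 4 controls and 79 counts in the defeat libraries. It was at least 28.5-fold higher with the same floor but did not pass (adjusted p = 0.137 by edgeR). The other groups held 26 to 67 counts.

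Zfp708, a zinc-finger gene on chromosome 13, had 2.13, 1.57, 0 and 0.280 CPM in controls and 3.71, 3.62, 4.39 and 4.71 CPM in defeat libraries, without overlap. Gm28557, which starts at the same position, 67217463, on the same strand, had 2.70, 4.58, 4.597 and 4.96 CPM in controls and 0.743, 0.938, 0.685 and 0.286 CPM in defeat libraries. The 2 opposite differences nearly cancel, since the summed level was 5.21 ± 0.688 CPM in controls and 4.77 ± 0.309 CPM in defeat libraries. The assignment of reads between the 2 overlapping genes is therefore uncertain, and neither value is taken as a change of Zfp708.

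**Figure D4:**
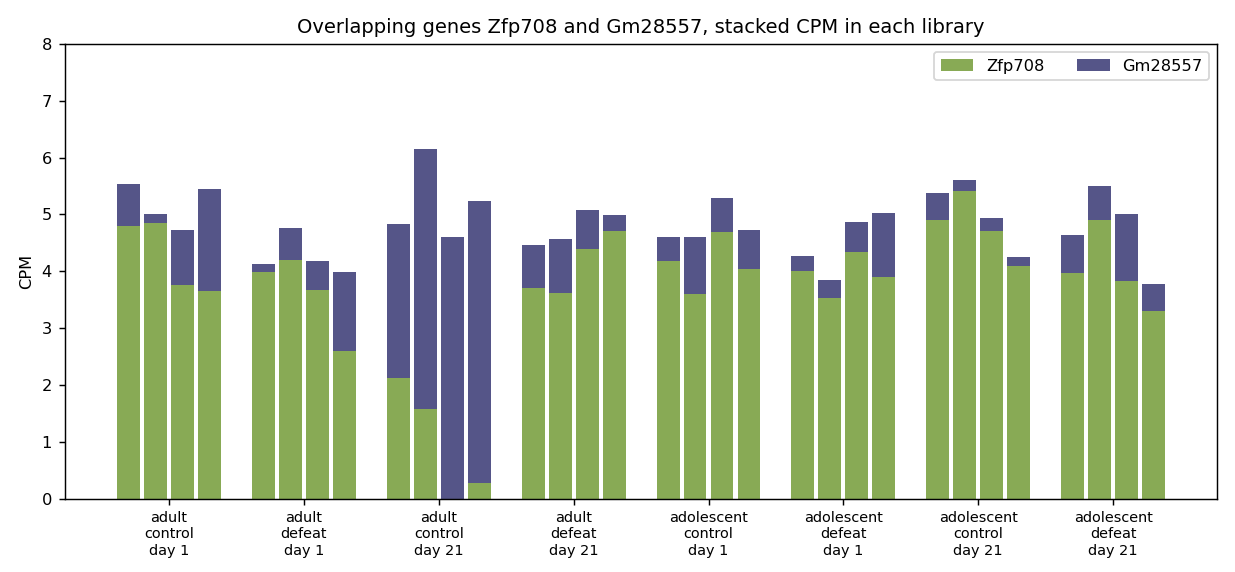
Stacked CPM (y axis) of the overlapping genes Zfp708 and Gm28557 in all 32 libraries (bars), by group (x axis). Gm28557 takes most of the sum in the 4 adult control libraries at day 21, while their mean sum, 5.21 CPM, is near the 4.77 CPM of the adult defeat libraries.

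Blood vessel markers separated the defeat libraries from each other. Of 18 markers, 13 were below 0, with 8 lower and 1 higher (the pericyte gene Pdgfrb) at an unadjusted p under 0.05 and a median of -0.23, yet in none did all defeat libraries lie below all controls. The mean log2 CPM was 4.53, 4.58, 4.69 and 4.59 in controls, 4.86 in defeat replicate 1 and 4.15, 4.19 and 4.21 in the other 3. Defeat replicate 1 was the highest defeat library in 17 of 18 markers, and in 11 of the 18 replicates 2 to 4 all lay below all controls. Setting replicate 1 aside was a choice made from these values, and the share of all genes with that layout is not given here. Abcb1a, the P-glycoprotein efflux pump of the blood-brain barrier, was at 24.3, 28.0, 29.0 and 27.0 CPM in controls, 25.6 CPM in defeat replicate 1 and 16.0, 15.1 and 15.1 CPM in the other 3. Summed marker levels were 788 to 857 CPM in controls and 674.5 to 951 CPM in defeat libraries.

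Without defeat replicate 1, 29 of 24293 tested genes passed an adjusted p of 0.05 with edgeR, 23 lower and 6 higher. The lower genes included 7 vessel markers: Abcb1a, Flt1, Slco1a4, Itm2a, Pecam1, Cdh5 and Tek. Flt1 and Tek encode receptors for vascular growth factors, Cdh5 and Pecam1 junction proteins and Slco1a4 an organic anion transporter. Emcn, Eng, Ptprb, Klf2 and Apold1, which are also expressed in endothelium, passed as well, and so did Fosb, Atf3 and Hspb1. The median of the 18 markers was then -0.47. Defeat replicate 1 was the highest defeat library in 17 of the 18, so leaving it out lowers the vessel values by that choice. With all 4 defeat libraries 0 of the 18 passed. The part that the vessel difference plays in the immediate early and chaperone values was not tested.

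**Figure D5:**
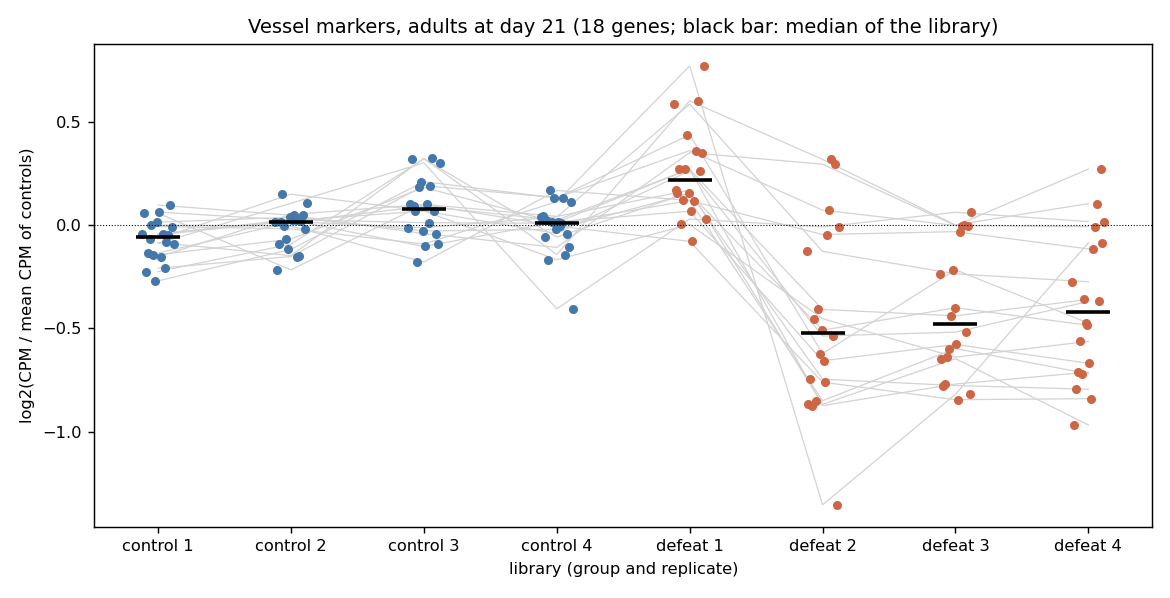
Log2 of CPM over the mean CPM of controls (y axis) for 18 vessel markers in the 8 adult libraries at day 21 (x axis); points are genes, grey lines join a gene across libraries and black bars are library medians. Defeat replicate 1 is the highest defeat library in 17 of 18 markers, and in 11 of 18 defeat replicates 2 to 4 all sit below all controls. The share of all genes with that layout is not given here.

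Markers of neurons from neighbouring nuclei had small differences above 0. All 24 striatal and central amygdala neuron markers, which label the nuclei beside the basolateral amygdala, were above 0 (50% of all genes were), with a median of 0.24, but only 5 had an unadjusted p under 0.05 (Six3, Penk, Foxp1, Isl1 and Tac1). Penk, the enkephalin precursor gene, was at 656, 689, 732 and 707 CPM in controls and 796, 852, 1059 and 847 CPM in defeat libraries, without overlap (log2 difference 0.35 ± 0.14). One library moved the median by over 1.5 times, to 0.13 without defeat replicate 3, and it was 0.34 without defeat replicate 1. Their summed level ran from 3273 to 3675 CPM in controls and from 3487 to 5225 CPM in defeat libraries, so the totals overlapped. Among 15 basolateral and pallial excitatory markers, 12 were below 0 with a median of -0.11. The transcription factor gene Tbr1 (-0.29 ± 0.12) and the glutamate transporter gene Slc17a6 had lower values at an unadjusted p under 0.05. The part of dissection in any of these values was not tested.

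Of 23 interneuron markers, 17 were below 0 with a median of -0.07, 4 were lower (Sox6 and Erbb4 among them) and 1, Gad2, was higher. Of 14 astrocyte markers, 13 were above 0 with a median of 0.10, and 3 were higher, Sox9, Gjb6 and Aldh1l1. Sox9, the gliogenic transcription factor gene, was at 19.0, 17.8, 18.5 and 21.2 CPM in controls and 23.1, 25.1, 22.3 and 26.2 CPM in defeat libraries, without overlap (log2 difference 0.34 ± 0.08, adjusted p = 0.195 by edgeR). Oligodendrocyte markers (median -0.02, 0 of 18) and microglia markers (median 0.08, 1 of 14, Cd68) had fewer members with an unadjusted p under 0.05. The oligodendrocyte median ran from -0.18 to 0.11 when 1 library was left out. Its summed level ran from 4782 to 9422 CPM in controls and from 6507 to 7723 CPM in defeat libraries, so a difference could be missed.

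The 14 choroid plexus markers had a median of -1.19 and none with an unadjusted p under 0.05. Their summed level was 141.3 to 871 CPM in controls and 180 to 231 CPM in defeat libraries. Without control replicates 1 and 3, which carried the high Ttr, the list median was 0.47, Dnajb1 stood at -0.59 (adjusted p = 0.175 by edgeR), Gm8113 still passed (adjusted p = 0.0244 by edgeR) and 17 immediate early genes were still lower at an unadjusted p under 0.05.

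Stress-hormone genes had values in both directions. Of 24 glucocorticoid-induced genes, 3 were higher and 5 lower at an unadjusted p under 0.05, with a median of -0.04. Fkbp5, which restrains the glucocorticoid receptor, was at 35.9, 38.5, 50.9 and 51.3 CPM in controls and 53.2, 58.6, 51.5 and 57.0 CPM in defeat libraries (log2 difference 0.32 ± 0.11, adjusted p = 0.522 by edgeR). Arrdc2, an arrestin-domain gene, had the opposite sign (-0.46 ± 0.14). Crh, the gene for corticotropin-releasing factor, was at 4.31, 4.89, 6.33 and 5.12 CPM in controls and 6.46, 8.33, 8.06 and 6.68 CPM in defeat libraries, without overlap (log2 difference 0.52 ± 0.16, adjusted p = 0.489 by edgeR). The glucocorticoid receptor gene Nr3c1 differed by -0.11 ± 0.06.

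Of 19 circadian clock genes, 4 were lower and 2 higher at an unadjusted p under 0.05, with a median of -0.05. Per1 was at 137.5, 145.1, 126.6 and 121.9 CPM in controls and 109.7, 87.8, 96.4 and 97.6 CPM in defeat libraries (log2 difference -0.44 ± 0.11, adjusted p = 0.195 by edgeR). Nfil3, Cry1 and Bhlhe40 shared that direction. Nr1d1, which encodes the Rev-erb alpha repressor, had the opposite one, with 87.4, 82.7, 78.0 and 81.7 CPM in controls and 97.6, 91.6, 99.5 and 92.0 CPM in defeat libraries (0.21 ± 0.05, adjusted p = 0.195 by edgeR). In both Per1 and Nr1d1 the groups did not overlap. The interaction with day was lower at an unadjusted p under 0.05 in 12 of the 19 clock genes.

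Receptor and synapse genes held few members with an unadjusted p under 0.05. Among 25 monoamine and opioid receptor genes, the adrenergic receptor genes Adrb1 (-0.29 ± 0.09) and Adra2a (-0.37 ± 0.12) had lower values at an unadjusted p under 0.05. Adrb1 was at 24.9, 29.9, 27.7 and 26.3 CPM in controls and 23.4, 21.9, 24.2 and 19.1 CPM in defeat libraries, without overlap. None of 14 GABA-A receptor and 17 presynaptic genes and 2 of 22 glutamate receptor genes (Grm7 and Grm8) had an unadjusted p under 0.05. Npy1r, a receptor for the anxiolytic peptide neuropeptide Y, was outside these lists and among the lowest p-values. It was at 18.3, 20.1, 19.7 and 17.2 CPM in controls and 11.1, 15.2, 12.3 and 14.8 CPM in defeat libraries, without overlap (-0.49 ± 0.11, adjusted p = 0.142 by edgeR).

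Of 26 endoplasmic reticulum unfolded protein genes, 6 were lower and 1 higher at an unadjusted p under 0.05, with a median of -0.07. Of 10 cold-inducible and CLK splicing genes, 2 were higher, Cirbp (0.25 ± 0.08) and Rsrp1. Of 22 interferon and antigen presentation genes, 19 were below 0 with a median of -0.11 and 2 were lower, Irf7 and Irf9. Ribosomal protein genes had a median of 0.06, with 29 of 30 above 0 and 0 with an unadjusted p under 0.05. The 20 cholesterol and fatty acid synthesis genes had a median of -0.04, and Acaca, which makes malonyl-CoA for fatty acid synthesis, had a lower value at an unadjusted p under 0.05.

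Whether the day 21 difference differed between age classes was tested by the age-by-defeat interaction, which passed in 6 genes (0.0252%), Gm8113 among them. At an unadjusted p under 0.05 there were 1732 genes (7.28%), 890 lower (3.74%) and 842 higher (3.54%), while upper quartile scaling gave 651 and 1008. Sox9 differed by 0.66 ± 0.11 (adjusted p = 0.0178 by edgeR), at 19.1 ± 1.46 and 24.2 ± 1.81 CPM in adult controls and defeat libraries and 28.1 ± 1.79 and 22.5 ± 2.53 CPM in adolescents. Tmem132e, a transmembrane protein gene, differed by -0.68 ± 0.10 (adjusted p = 0.00269 by edgeR), at 25.4 ± 0.715 and 21.5 ± 1.37 CPM in adults and 19.4 ± 1.31 and 26.3 ± 2.61 CPM in adolescents. Lama4, a laminin chain gene of vessel basement membrane (-0.95 ± 0.18), Fam163b (-0.45 ± 0.08) and Acsl3, which activates long-chain fatty acids (0.36 ± 0.07), were the others. The call was kept in 23 of 23 alternatives for Tmem132e, 19 of 23 for Sox9 and 18 of 23 for Fam163b, but in only 5 of 21 for Lama4 (adjusted p up to 0.127 by edgeR) and 9 of 23 for Acsl3 (up to 0.119). In each of these 5 genes the adult and adolescent differences had opposite signs, which choosing genes by this interaction favours.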

How the data were processed

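Per the file headers, raw counts and the authors' FPKM values were deposited for 40392 mouse genes in 32 libraries. Per the submitters' processing notes, cutadapt 1.9, HISAT2 2.0.4, StringTie 1.3.4d and edgeR were used, with no roles given, and the build named is a human one, so gene positions are printed as deposited with the build not stated. Strand use in counting is not stated. Counts were fitted with edgeR 4.0.16 (R 4.3.3) as 8 group means with TMM scaling and its default expression filter, which left 23778 genes with 99.975% of counts. Quasi-likelihood tests were 2-sided with Benjamini-Hochberg adjustment over all tested genes and a threshold of 0.05, with 24 residual degrees of freedom. SE is the absolute log2 change over the square root of F. Alternatives used DESeq2 1.42.0, limma 3.58.1 on log2(FPKM + 1) and log2(FPKM + 0.1), other scaling and filtering, and left-out libraries. The test was also run on counts simulated from its own fit. The recovery rates are not given here, so that run is not used as support for any value above. Named genes were all that passed, the 12 with the smallest p in each direction without model names, up to 3 members of each list with an unadjusted p under 0.05 (up to 8 in the immediate early, effector and chaperone lists), the promoter genes and 11 always evaluated. Gm28557, Tmc5, Hspa8, Hsp90ab1 and further members were named after their values were seen. Comparisons, 31 lists (579 members tested) and rules were chosen with earlier results of these data known. Some items are not reported here.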

Additional observations from a re-analysis of the deposited data

Results flagged for a closer look

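In 13 of 194 groups of 4 libraries, taken over the named genes, 1 library lay far from the other 3 in Dixon's test, where chance alone gives about 1 in 20. In the controls these were Klhl35 in replicate 1 (1.61 CPM, nearest 1.27), Plk3 in replicate 4 (16.8 CPM, nearest 23.1), Dnaja1 in replicate 3 (278.3 CPM, nearest 300.2), Creld2 in replicate 1 (20.9 CPM, nearest 22.6), Tbr1 in replicate 2 (83.5 CPM, nearest 70.4) and Grm8 in replicate 4 (28.2 CPM, nearest 26.5). In the defeat libraries they were Plk3 in replicate 4 (13.8 CPM, nearest 18.3), Erbb4 in replicate 4 (65.7 CPM, nearest 57.6), Abcb1a in replicate 1 (25.6 CPM, nearest 16.0), Slco1a4 in replicate 1 (44.4 CPM, nearest 28.4), Lama4 in replicate 1 (3.17 CPM, nearest 2.76), Acaca in replicate 3 (59.8 CPM, nearest 65.2) and Nr3c1 in replicate 2 (78.7 CPM, nearest 68.0). The 3 vessel genes among them were all high in defeat replicate 1. The 194 include groups at 0 in all 4 libraries, Gm8113 in defeat and Tmc5 in controls, which could not be tested. The genes share the same libraries, so the groups are not independent and the 1 in 20 is only a rough guide.

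The defeat difference in adults differed between day 21 and day 1 in 148 genes by an interaction test with edgeR. The log2 interactions of the 10 with the smallest p were -1.47 (Egr4), -1.16 (Per1), -1.09 (Fosl2), 0.89 (Zc3h6), -1.08 (Ccdc117), -1.23 (Egr1), -0.92 (Dnajb1), -1.14 (Fosb), -1.31 (Nr4a3) and -0.48 (Mcl1). The defeat difference at day 21 differed between age classes in 6 genes by the same kind of test. Their log2 interactions were 0.66 (Sox9), -0.45 (Fam163b), -0.95 (Lama4), -0.68 (Tmem132e), 0.36 (Acsl3) and -7.57 (Gm8113, a fitted value against a group at 0 and no bound).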

How the results depend on the processing

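Among named genes, 1799 gene values kept their direction and side of the threshold over the alternatives, 49 lost the call, 45 gained it and 4 reversed. The count of called genes in the day 21 comparison was 2 in the analysis reported, 1 without the filter on low counts, 3 with only the groups compared (Egr2, Fos and Gm28557; Dnajb1 had an adjusted p of 0.0623 by edgeR and Gm8113 no value), 40 with DESeq2 (14 higher, 26 lower), 1 to 29 when 1 library was left out, and 5 without both control libraries with Ttr above 50 CPM, an alternative chosen after seeing the data. The 5 were Cimip2c, Gm19792, Gm36640, Gm8113 and Zfp708. It was 5, 3 and 4 when control replicate 1, 3 or 4 was dropped, 1 for control replicate 2 or defeat replicate 2 or 3, 2 for defeat replicate 4 and 29 for defeat replicate 1. The day interaction count of 148 became 94 without the filter, 97 with only the groups compared, 314 with DESeq2 and 85 to 269 when 1 library was left out. The age interaction count of 6 became 47 with DESeq2 and 2 to 32 when 1 library was left out (32 for adult defeat replicate 1, 11 for adult control replicate 1). With 1 library left out, 17 to 18 immediate early genes and 6 to 10 chaperone genes were lower at an unadjusted p under 0.05.

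With the replicate number as a block the 3 counts were 1, 132 and 5: Gm8113 passed and Dnajb1 did not (log2 change -0.60, adjusted p = 0.0636 by edgeR). Deviations of same-numbered adult day 21 libraries correlated at -0.08, 0.13, 0.00 and -0.10, and not every library correlated best with its own number, so the numbers are not taken to pair them.

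Bdnf, at -0.04, ranged from -0.162 to 0.0495 when 1 library was left out and was above 0 for defeat replicate 4 (0.034) and control replicates 3 and 4 (0.024 for the latter), and Ttr reversed to 1.35 when control replicates 1 and 3 were dropped. The medians of mitochondrially encoded and glutamate receptor genes changed sign under upper quartile scaling. The cause of these shifts was not tested. With 4 libraries a group, small differences may be missed, and genes under the expression filter were not tested.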
